A study of Mus musculus with 18 samples.

Results

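Motile cilia genes were followed through 18 one-colour arrays covering ectopic lesions of an endometriosis model, eutopic endometrium and plain uterus of mice. The 38 genes were taken as a named list of ciliary regulators, axonemal proteins and assembly factors, and each was read from its brightest probe. Of the 38, 36 had a probe named to the symbol (not Dnah3 or Ccdc40), and 30 passed the filter, which asked for 3 or more arrays of 18 with a signal well above background. They are set against 33455 features tested in the whole series, 18014 of them with a gene symbol. The 6 listed genes whose brightest probe was below that filter (Rsph4a, Spag17, Dnah5, Ccdc113, Cfap44 and Ak7) are given by their levels only.

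The study crossed genotype with tissue, with 3 arrays in each of 6 groups, and every array carried RNA pooled from 3 mice, so that a group drew on 9. By the labels, ERBOE mice carry an excess of oestrogen receptor beta, and the controls were PRCre/+ mice. Ectopic lesions came from uterine fragments of ERBOE or PRCre/+ donors, punched at 2 mm, that were placed in intact wild-type C57BL/6J hosts of 8 weeks of age and collected at estrus after 4 weeks. For eutopic endometrium the hosts were ERBOE or PRCre/+ mice that had received a wild-type C57BL/6J fragment at 8 weeks of age, collected at the same interval and stage. Uterus was taken at estrus from ERBOE or PRCre/+ mice of 12 weeks without surgery. The PRCre line carries Cre recombinase in the progesterone receptor locus, and the labels give neither the transgene of ERBOE mice nor whether they carry the same Cre. For the ERBOE lesions and eutopic samples, the titles and the source field disagree on whether the mice had endometriosis, and the titles were followed. The lesions hold cells of a wild-type host as well as of the donor fragment, and no lesion shares an animal with a eutopic sample by this account. Where lesions are placed in ERBOE or PRCre mice below, the genotype is that of the donor fragment and not of the host. Because each array is a pool, the p-values below measure the spread between pools and not between mice.

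Motile cilia are beating hairs built on an axoneme of microtubule doublets, moved by dynein arms whose activity is relayed from a central pair through radial spokes. In multiciliated cells the programme is set by geminin-family regulators such as Mcidas, by the forkhead factor Foxj1 and by RFX factors, which bind a sequence known as the X-box in the promoters of ciliary genes. The oviduct lining is rich in multiciliated cells, while the endometrial epithelium holds few.

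A level here is the log2 processed intensity minus the 75th percentile of its array, so that 0 is the signal of the 75th percentile spot, and a difference is in log2 units with its limma standard error (SE). Levels of different probes are not set against each other. A reading is called above background where the scanner software flagged it well above background, and below background where it did not. The 75th percentile signal was lowest on PRCre uterus pool 1, at 239.6, while the other 17 arrays lay between 455.1 and 744.7, and 55.3% to 74.2% of probes were well above background. The epithelial markers Epcam, Krt8 and Krt18 and the uterine markers Pgr, Esr1 and Hoxa10 were well above background on all 18 arrays. Esr2, the gene of oestrogen receptor beta, read 2.07 to 2.75 on the ERBOE arrays and 2.14 to 2.82 on the PRCre arrays. No source used here says whether that probe reads the transgene, so it checks no genotype label, and the directions below are those of the labels.

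One array stood apart for these genes and is described before the comparisons. PRCre eutopic pool 2 gave the highest of the 18 readings for 15 of the 36 motile cilia genes (41.7%), while it gave the highest reading for 4.74% of all features tested. That array was the lowest of the 18 for none of the 36, and 34 of the 36 were well above background on it, against 17 to 30 on the other arrays. Of all probes, 68.7% were well above background on it, against 74.2% on ERBOE eutopic pool 1, the array with most. The mean level of the 30 genes tested was -1.05 there and lay between -2.96 and -2.19 on the other 17 arrays. This is a description of 1 pool, and no test was made of it.

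The genes raised on that array were mostly parts of the axoneme, and 9 of the 36 read more than 1 log2 unit above the next highest array. The 9 were singled out after their values were seen, and Dnah5, Ccdc113, Rsph4a and Cfap44 among them were below the filter. The share of all features with such a gap was not computed. Ccdc153, a coiled-coil protein of the axoneme, read 2.14 on PRCre eutopic pool 2 and at most -2.59 on the other 17 arrays, where 10 were well above background. Its levels were -4.56, -3.78 and -4.92 in ERBOE lesions, against -4.91, -3.43 and -4.45 in PRCre lesions, and -4.24, -5.60 and -4.48 in ERBOE eutopic endometrium, against -5.52, 2.14 and -4.96 in PRCre eutopic endometrium. In uterus it read -3.98, -2.59 and -4.34 in ERBOE mice, against -4.53, -4.04 and -5.01 in PRCre mice, so that every other pool lay far below that array. The outer dynein arm heavy chain Dnah5 read -2.02 there and at most -5.58 elsewhere. Drc1, which holds the nexin-dynein regulatory complex together, read -0.29 there and at most -3.09 elsewhere. The other 6 were Ccdc113 of ciliary basal bodies, the radial spoke head protein Rsph4a, the dynein-associated protein Cfap44, the outer arm heavy chain Dnah11, and the inner arm heavy chains Dnah6 and Dnah2, whose gaps to the next array lay between 1.03 and 3.15. Rsph4a was well above background on no other array, and all 4 probes of Cfap44 gave their highest reading on that one (for the probe reaching furthest there, -0.61 with the next array at -2.46).

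Not every listed gene was raised there. The regulators Mcidas, Ccno, Rfx2 and Rfx3 ranked 15, 5, 13 and 11 of 18 on that array, counted from the highest, while Foxj1 ranked 1 at -1.03 with the next array at -1.65. Enkur ranked 10, the sperm and ciliary filament protein Mns1 ranked 9, and the tubulin-binding protein Tppp3 ranked 17. Over the 36 genes the median excess of that array over the median of the other 17 was 1.55, and over all features tested it was -0.01. The 36 include the listed genes below the filter, while all features tested passed it, so these are not like sets.

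Other lists moved on the same array. The highest of the 18 readings fell on PRCre eutopic pool 2 for 35 of 88 other motile cilia genes (39.8%) and for 15 of 33 epithelial markers (45.5%), against 2 of 63 genes of intraflagellar transport and the primary cilium (3.17%). Ovgp1, which encodes the oviduct's secreted glycoprotein, read 6.27 on that array and at most 3.58 on the other 17. The mean level of the epithelial markers was 2.16 on that array and 0.18 to 2.06 on the others. Of the 10 markers of oviduct secretory cells and ovary that were tested, Ovgp1 was the 1 highest there. Over the 19 markers of that list, 8 were not well above background on it (Amh, Cyp19a1, Fshr, Lhcgr, Bmp15, Zp2, Figla and Sohlh1), while others were, among them the steroid enzyme Cyp17a1 at 2.21, Nlrp5 at -0.79 and Gdf9 at -1.73. The part of oviduct or epithelial content in the cilia readings was not tested, and in RNA from whole tissue, fewer cells of a type and less RNA per cell cannot be told apart. For the counts of direction and of p-values, and for the larger differences, that rest on PRCre eutopic endometrium, the value without that pool is given beside them. Counts of genes without overlap are given with all pools only.

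**Figure D1:**
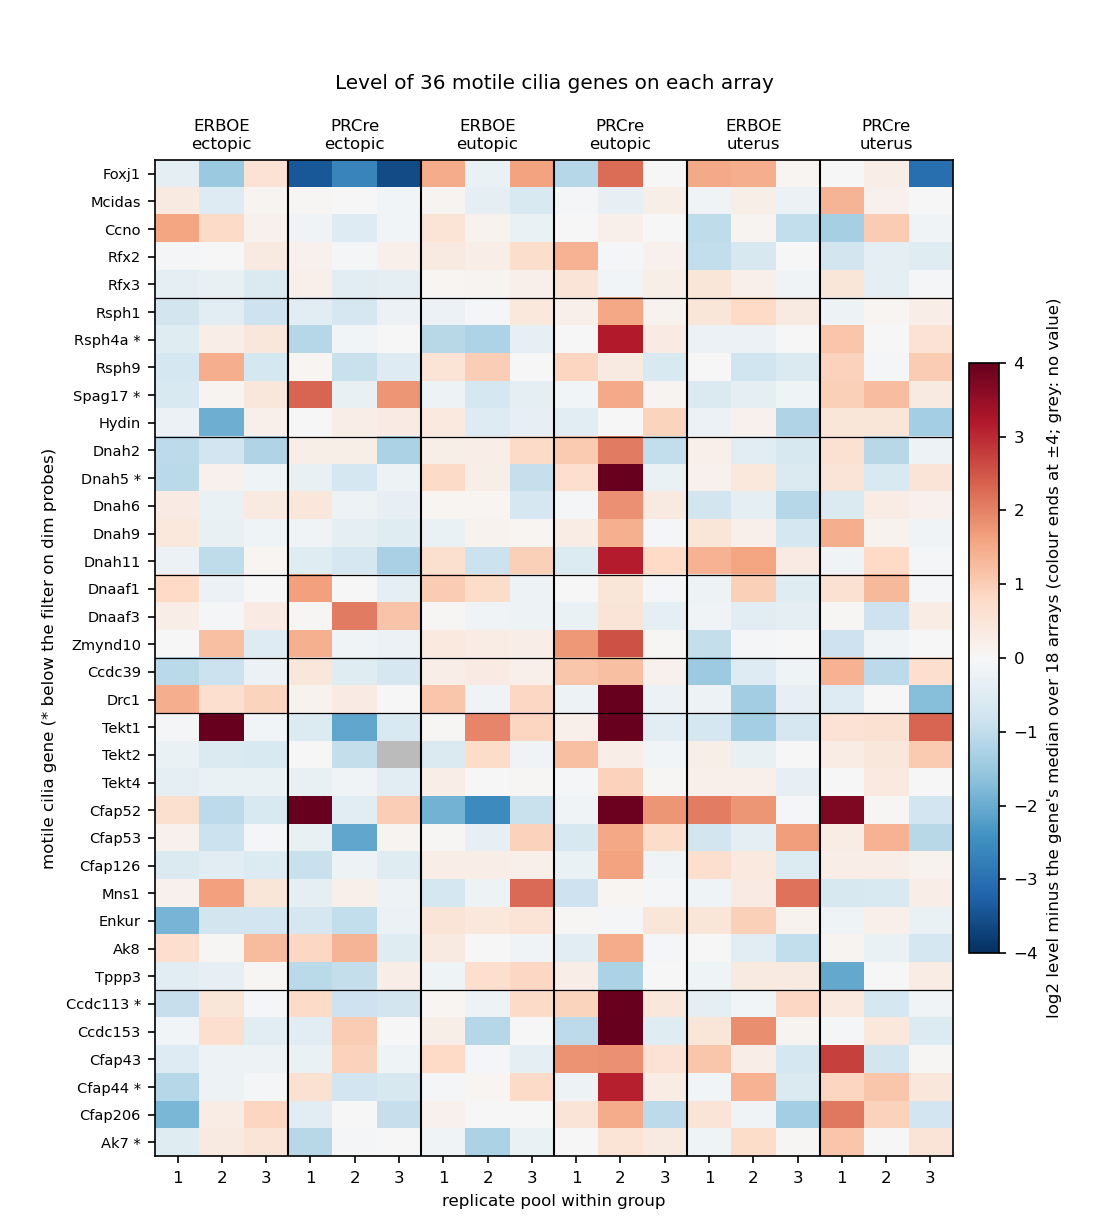
Level of each of the 36 motile cilia genes on each of the 18 arrays, as the log2 level minus the median of that gene, with genes down the side grouped by role and arrays across by group. The column of PRCre eutopic pool 2 is red for most axonemal genes, with Ccdc153 at 2.14 against -2.59 on the next array, and the Foxj1 row is blue in the 3 PRCre lesions.

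**Figure D2:**
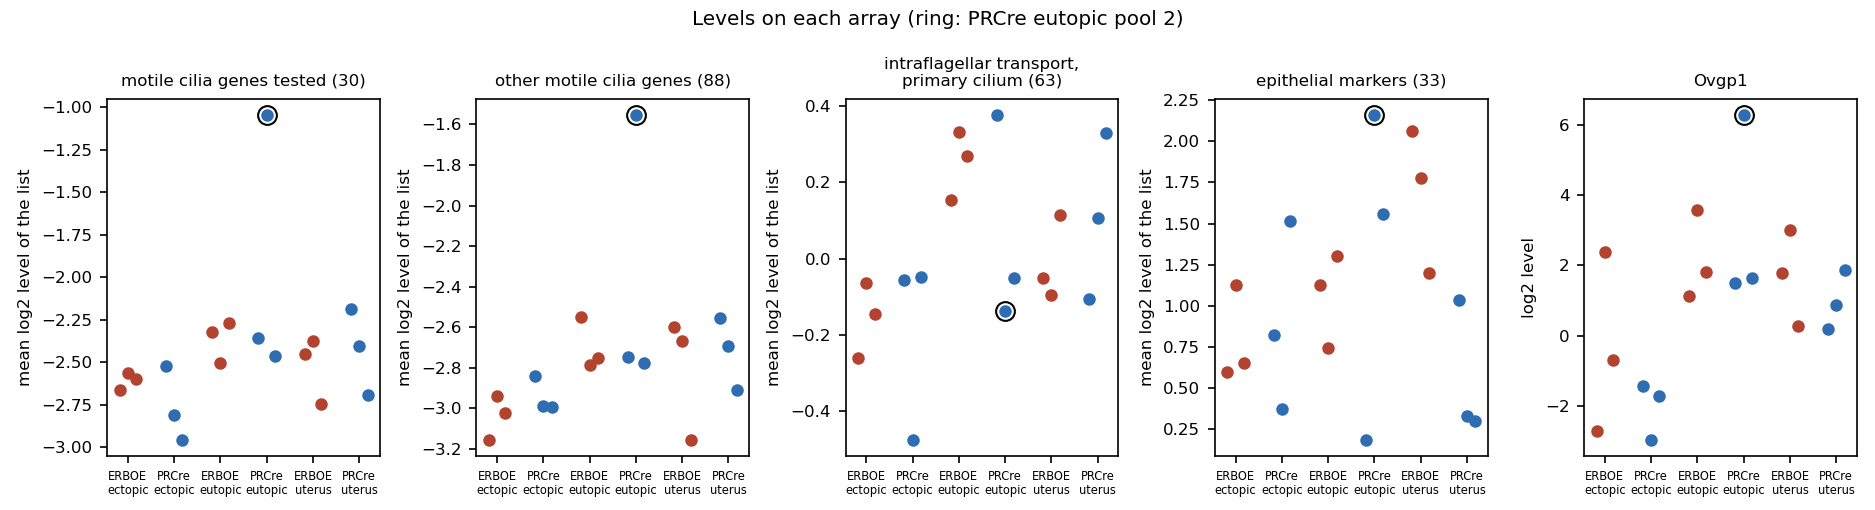
Mean log2 level on each array of the 30 motile cilia genes tested, 88 other motile cilia genes, 63 genes of intraflagellar transport and the primary cilium and 33 epithelial markers, and the log2 level of Ovgp1, with 1 point per array. The ringed point is PRCre eutopic pool 2, at -1.05 in the motile cilia panel and at 6.27 in the Ovgp1 panel.

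Across the 12 comparisons, 1 motile cilia gene passed the limma test at an adjusted p of 0.05 (Benjamini-Hochberg over the 33455 features of a comparison), and it did so in 2 of them. That gene was Enkur, which encodes enkurin, a protein inside the doublet microtubules of motile cilia. Enkur fell in ERBOE lesions against both ERBOE eutopic endometrium and ERBOE uterus. The other 29 genes tested did not pass in any comparison.

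Enkur read -4.03, -2.91 and -2.93 in the 3 pools of ERBOE lesions, against -1.64, -1.73 and -1.60 in ERBOE eutopic endometrium and -1.66, -1.21 and -2.01 in ERBOE uterus. It was well above background on all 18 arrays. Every ERBOE lesion pool read lower than every ERBOE eutopic and uterine pool, and pool 1 was the lowest of the lesions by over 1 log2 unit. The mean level was -3.29 ± 0.64 in ERBOE lesions and -1.66 ± 0.06 in ERBOE eutopic endometrium (SD, n = 3 each). The difference was -1.63 ± 0.31 (SE), 3.1-fold lower in lesions (limma adjusted p = 0.028). Against ERBOE uterus the difference was -1.66 ± 0.31, 3.16-fold lower in lesions (limma adjusted p = 0.0192). The share of all features called lower was 0.135% in the first of these comparisons and 0.284% in the second.

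In the controls the same gene differed less. Enkur read -2.83, -3.15 and -2.39 in PRCre lesions, against -2.12, -2.20 and -1.66 in PRCre eutopic endometrium and -2.32, -1.97 and -2.44 in PRCre uterus. The PRCre lesion pools lay below the eutopic pools without overlap, and they overlapped the uterine pools. The difference from eutopic endometrium was -0.79 ± 0.31 (limma adjusted p = 1) and became -0.90 ± 0.36 without PRCre eutopic pool 2. The difference from uterus was -0.55 ± 0.31 (limma adjusted p = 0.535). The test of the difference between genotypes did not pass: the lesion minus eutopic difference in ERBOE mice less that in PRCre mice was -0.84 ± 0.44 (limma adjusted p = 1), or -0.73 ± 0.48 without PRCre eutopic pool 2, and for lesions minus uterus it was -1.11 ± 0.44 (limma adjusted p = 0.64).

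The call on Enkur depends on single pools and on the background correction. Under normexp background correction, another way of removing background, the difference from eutopic endometrium was -0.83 (limma adjusted p = 0.0611). Without ERBOE lesion pool 1 the difference from eutopic endometrium was -1.26 (limma adjusted p = 0.134) and that from uterus -1.29 (limma adjusted p = 0.0915). Leaving out any 1 of the 3 ERBOE eutopic pools also ended the first call, with adjusted p between 0.087 and 0.126, and leaving out ERBOE uterus pool 1 or 2 ended the second, at 0.0729 and 0.0973. Within slides the lesion minus eutopic difference was -1.29 on slide 2 and -2.36 on slide 3, and the lesion minus uterus difference was -0.90, -1.72 and -2.36 on slides 1, 2 and 3. Slide and scan coincided on these arrays, with no eutopic array on slide 1 and no PRCre lesion on slide 3. With slide as a block the adjusted p was 0.021 against eutopic endometrium and 0.0177 against uterus.

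Cell type markers moved with the same comparisons. Fat markers were higher in ERBOE lesions than in ERBOE eutopic endometrium for 10 of 10 genes, 8 of them past the threshold. Their mean level was 3.59 to 4.06 in ERBOE lesions and -3.17 to 0.38 in ERBOE eutopic endometrium. Over all features of that comparison, 0.466% were called higher, and 38.5% were higher in direction, so that most were lower. Epithelial markers were lower in ERBOE lesions for 24 of 33 genes, none past the threshold (limma, adjusted p under 0.05), with mean levels of 0.60 to 1.13 in ERBOE lesions and 0.75 to 1.30 in ERBOE eutopic endometrium. Smooth muscle markers were lower for 12 of 12 genes, none past the threshold. Against ERBOE uterus, fat markers were higher in ERBOE lesions for 10 of 10 genes, 9 past the threshold, with mean levels of 3.59 to 4.06 in lesions and -3.50 to -2.01 in uterus. Over all features, 0.945% were called higher in ERBOE lesions than in ERBOE uterus, and 43.7% were higher in direction. Epithelial markers were lower for 29 of 33 genes, none past the threshold, with a median difference of -0.86 and with mean levels of 0.60 to 1.13 in ERBOE lesions and 1.20 to 2.06 in ERBOE uterus, which did not overlap. Smooth muscle markers were lower for 12 of 12 genes, none past the threshold, with a median difference of -0.68. The part of these cells in the Enkur reading was not tested.

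The promoter of Enkur holds a match to the X-box pattern searched here, and binding by RFX factors was not measured. This promoter is printed because Enkur is the gene that passed the test, and because RFX factors, which bind X-box sequences, are among the listed regulators. It runs from 250 bases before to 50 after the start of the gene, on the minus strand at chr2:21205316-21205615 of GRCm38.p6, from RefSeq. Capitals mark the palindrome, which was searched as GTTNCC and GNAAC with any 3 bases between, and, upstream of it, the shorter sequence GTTGCC.
Enkur: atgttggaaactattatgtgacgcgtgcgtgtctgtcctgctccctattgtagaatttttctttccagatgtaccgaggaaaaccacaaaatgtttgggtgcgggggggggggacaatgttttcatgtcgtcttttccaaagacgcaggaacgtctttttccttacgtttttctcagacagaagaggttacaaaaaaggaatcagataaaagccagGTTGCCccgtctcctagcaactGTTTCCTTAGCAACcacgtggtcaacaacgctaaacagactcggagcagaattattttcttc

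RefSeq promoters were given for 31 of the 38 genes, and not for Foxj1, Rsph1, Rsph4a, Dnah3, Dnaaf1, Cfap53 and Tppp3. Searched on both strands, the palindrome (GTTNCC, 3 bases, GNAAC) was in the promoters of 4 of the 31 (12.9%), against 0.936% of 27025 genes with a promoter of that length. The shorter GTTGCC, which can lie inside the palindrome, was in 15 of the 31 (48.4%), against 14.1% of all. The forkhead sequence TGTTTAC was in 2 of the 31, Ak7 and Cfap43 (6.45%), against 4.05% of all. The parts of the pattern differ in length, so it is an imperfect palindrome that reads differently on the opposite strand. Enkur matched it on the strand of the gene. Hydin, Cfap44 and Tekt4 matched it on the opposite strand, so their capitals read as its reverse complement. The 4 matches are shown with 8 bases on each side, on the strand of the gene, and capitals mark the match. It begins 12 bases before the start in Enkur, 21 in Hydin, 27 in Cfap44 and at the start itself in Tekt4.
Enkur, chr2:21205356-21205385, minus strand: tagcaactGTTTCCTTAGCAACcacgtggt
Hydin, chr8:110266948-110266977, plus strand: actctgcgGTTGCTGTGGCAACagatggta
Cfap44, chr16:44394764-44394793, plus strand: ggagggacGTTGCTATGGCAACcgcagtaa
Tekt4, chr17:25471582-25471611, plus strand: tatacaatGTTCCTTAGGCAACcaggaacc

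Of these 4 genes, Enkur passed the test in ERBOE lesions, the central pair protein Hydin and the tektin Tekt4 did not pass in any comparison, and the brightest Cfap44 probe, the 1 that stood for the gene, was well above background on 2 arrays and was not tested. In ERBOE lesions minus ERBOE eutopic endometrium, Hydin differed by -0.52 ± 0.59 and Tekt4 by -0.41 ± 0.25 (limma adjusted p = 0.823 and 0.618).

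Foxj1, the forkhead factor that switches on the motile cilia programme, had the widest range of the regulators. It read -3.64, -4.76 and -2.71 in ERBOE lesions, against -6.67, -5.90 and -6.84 in PRCre lesions. It was well above background in 2 of 3 ERBOE lesion pools and in no PRCre lesion pool, and the groups did not overlap. The difference was 2.77 ± 0.94 (limma adjusted p = 0.992), and since PRCre lesions give only a bound, Foxj1 was at least 2.51-fold higher in ERBOE lesions. Such a bound sets the mean of the brighter group against the dimmer group's mean of, on each array, the lowest signal called well above background or the probe's own where that was higher, and it holds for the scanner's background correction. Leaving out 1 array moved this bound to between 1.78 and 3.62 (1.78 without ERBOE lesion pool 3), and under normexp background correction the difference itself was 0.89, which is smaller than the bound.

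Foxj1 was above background again in most of the other tissue. It read -1.77, -3.55 and -1.65 in ERBOE eutopic endometrium, against -4.40, -1.03 and -3.29 in PRCre eutopic endometrium. It read -1.76, -1.81 and -3.20 in ERBOE uterus, against -3.25, -3.01 and -6.27 in PRCre uterus, where pool 3 was not well above background. The genotypes overlapped in both tissues, with ERBOE minus PRCre differences of 0.58 ± 0.94 in eutopic endometrium (1.52 ± 0.93 without PRCre eutopic pool 2) and 1.93 ± 0.94 in uterus (limma adjusted p = 1 and 0.524).

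Within PRCre mice every lesion pool read lower for Foxj1 than every eutopic pool, a difference of -3.56 ± 0.94 (limma adjusted p = 0.528; at least 4.36-fold lower in lesions). The difference was -2.62 ± 0.93 and the bound 2.27-fold without PRCre eutopic pool 2, and under normexp background correction the difference was -1.32. Against PRCre uterus the difference was -2.29 ± 0.94 (limma adjusted p = 0.353; at least 1.8-fold lower in lesions), and pool 3 of the uterus fell among the lesions. Without uterine pool 2 that bound was 1.2-fold, and without uterine pool 3 it was 3.73-fold. Within ERBOE mice the lesion minus eutopic difference was -1.38 ± 0.94 and the lesion minus uterus difference -1.45 ± 0.94, and the groups overlapped in both (limma adjusted p = 0.67 and 0.611).

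Of the other regulators, Ccno encodes cyclin O, which acts in the amplification of centrioles. Ccno read -2.67, -3.47 and -4.06 in ERBOE lesions, against -4.36, -4.74 and -4.35 in PRCre lesions. The lesion groups did not overlap, and 1 pool of each was not well above background. The difference was 1.09 ± 0.50 (limma adjusted p = 0.992), and ERBOE lesions minus ERBOE uterus was 1.47 ± 0.50 (limma adjusted p = 0.205). Ccno read -3.70, -4.09 and -4.50 in ERBOE eutopic endometrium, against -4.23, -4.03 and -4.24 in PRCre eutopic endometrium, and -5.26, -4.13 and -5.22 in ERBOE uterus, against -5.58, -3.21 and -4.39 in PRCre uterus. Both genotype pairs overlapped in those tissues, and ERBOE lesions lay above ERBOE uterus without overlap.

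Rfx2, an RFX factor of ciliated cells and of spermatids, was dim and was well above background on 6 of 18 arrays, 5 of them eutopic. No uterine pool was well above background, and Rfx2 passed the filter only through its eutopic arrays. Its difference between eutopic endometrium and uterus is therefore given as a description. It read -4.64, -4.74 and -4.30 in ERBOE eutopic endometrium, against -5.98, -5.65 and -5.02 in ERBOE uterus, and -3.61, -5.07 and -4.83 in PRCre eutopic endometrium, against -5.72, -5.39 and -5.50 in PRCre uterus. Eutopic pools lay above uterine pools without overlap in both genotypes, by 0.99 ± 0.33 in ERBOE mice (at least 1.15-fold higher) and by 1.03 ± 0.33 in PRCre mice (limma adjusted p = 1 and 0.742), and by 1.32 ± 0.35 in PRCre mice without eutopic pool 2. Under normexp background correction the differences were -0.01 in ERBOE mice and -0.07 in PRCre mice. In lesions Rfx2 read -5.06, -4.98 and -4.65 in ERBOE pools, against -4.84, -5.06 and -4.80 in PRCre pools, which overlapped.

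Rfx3, which binds the same X-box and serves primary as well as motile cilia, was well above background on all 18 arrays. It read -1.55, -1.47 and -1.75 in ERBOE lesions, against -1.11, -1.07 and -0.99 in ERBOE eutopic endometrium and -0.69, -0.97 and -1.31 in ERBOE uterus. The lesion pools lay below both tissues without overlap, by -0.53 ± 0.26 and -0.60 ± 0.26 (limma adjusted p = 0.5 and 0.375). In the controls Rfx3 read -0.98, -1.59 and -1.53 in PRCre lesions, against -0.67, -1.30 and -0.96 in PRCre eutopic endometrium and -0.69, -1.57 and -1.25 in PRCre uterus, and all 3 tissues overlapped.

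Mcidas, the geminin-family coactivator at the head of the programme, varied little. Its bright probe lay between 3.95 and 5.90 on all 18 arrays, and a second probe was dim, well above background on 5 of 18. The bright probe read 4.89, 4.03 and 4.67 in ERBOE lesions, against 4.60, 4.55 and 4.44 in PRCre lesions. In eutopic endometrium it read 4.64, 4.20 and 3.95 in ERBOE mice, against 4.48, 4.20 and 4.78 in PRCre mice, and in uterus 4.39, 4.77 and 4.30 in ERBOE mice, against 5.90, 4.72 and 4.54 in PRCre mice. All 3 genotype pairs overlapped, and PRCre uterus pool 1, the array with the lowest 75th percentile signal, gave the top reading. With 1 bright and 1 dim probe, it is not known which probe reads the Mcidas transcript.

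**Figure D3:**
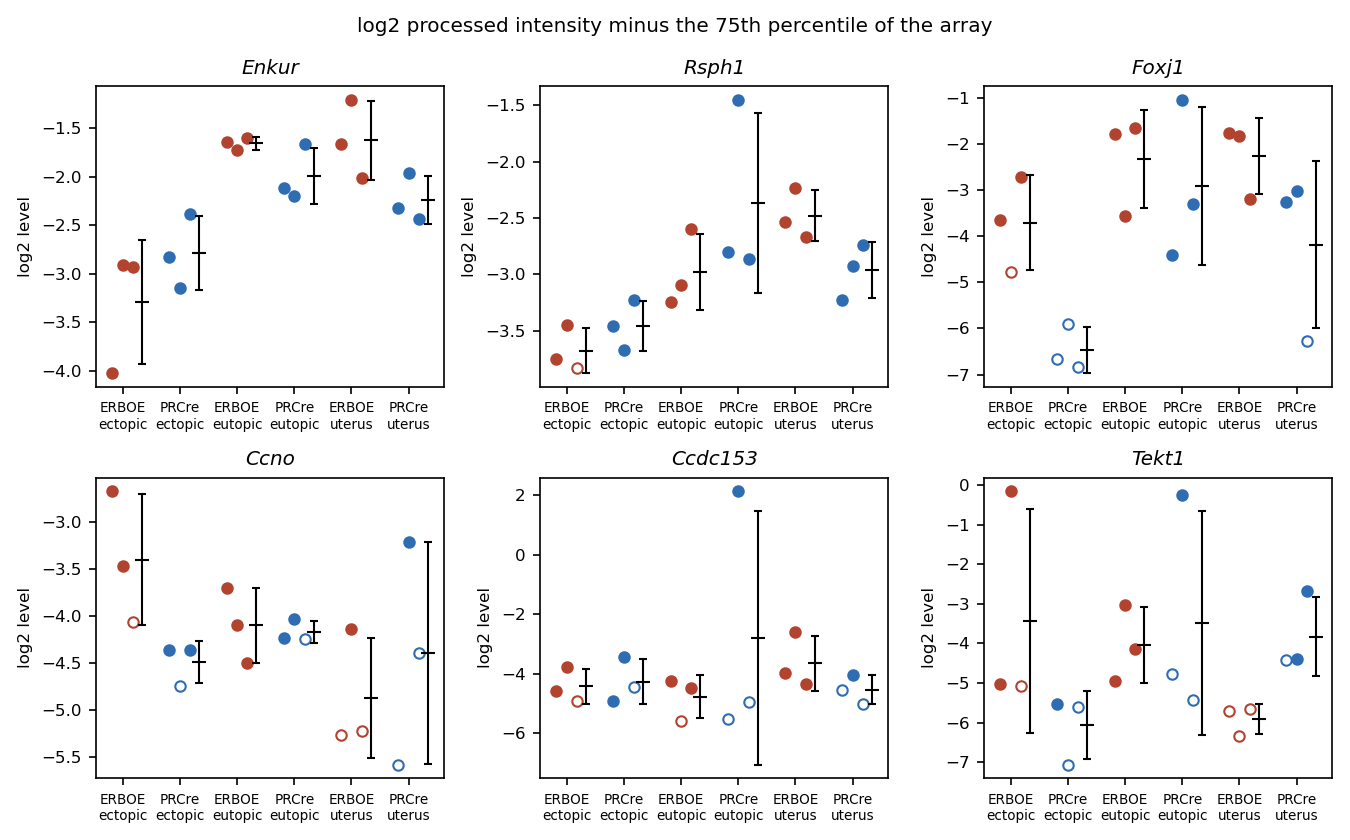
Log2 level of Enkur, Rsph1, Foxj1, Ccno, Ccdc153 and Tekt1 on each array by group, with 1 point per pool (filled where the probe was well above background, open where not) and the mean with its SD beside each group. ERBOE lesions lie at -4.03 to -2.91 for Enkur, below ERBOE eutopic endometrium and uterus, and the 3 PRCre lesions are open points at -6.84 to -5.90 for Foxj1.

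The radial spokes and central pair pass the signal for bending to the dyneins. Rsph1, a radial spoke head protein, read -3.75, -3.45 and -3.83 in ERBOE lesions, against -3.24, -3.09 and -2.60 in ERBOE eutopic endometrium and -2.54, -2.23 and -2.67 in ERBOE uterus. It read -3.46, -3.68 and -3.23 in PRCre lesions, against -2.80, -1.45 and -2.86 in PRCre eutopic endometrium and -3.23, -2.93 and -2.74 in PRCre uterus. Lesion pools were below eutopic and uterine pools without overlap in both genotypes, though the PRCre lesions and uterus nearly met.

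No difference of Rsph1 passed the test with all 18 arrays. In ERBOE mice it was -1.20 ± 0.33 for lesions minus uterus (limma adjusted p = 0.101) and -0.70 ± 0.33 for lesions minus eutopic endometrium (limma adjusted p = 0.469). Without PRCre eutopic pool 2, which enters the shared estimate of the spread, the lesion minus uterus difference in ERBOE mice was the same and the adjusted p was 0.0229. In PRCre mice lesions minus eutopic endometrium was -1.09 ± 0.33 (limma adjusted p = 0.743), and -0.63 ± 0.25 without that pool. Rsph1 was higher in ERBOE uterus than in PRCre uterus without overlap, by 0.48 ± 0.33 (limma adjusted p = 0.646).

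Rsph9, another spoke head protein, read 0.54, 2.69 and 0.52 in ERBOE lesions, against 1.30, 0.35 and 0.72 in PRCre lesions. In uterus it read 1.22, 0.43 and 0.64 in ERBOE mice, against 2.15, 1.14 and 2.24 in PRCre mice. The groups overlapped in both tissues, and ERBOE uterus minus PRCre uterus was -1.08 ± 0.55 (limma adjusted p = 0.542). Its eutopic levels were 1.78, 2.21 and 1.24 in ERBOE mice, against 2.09, 1.57 and 0.61 in PRCre mice. Hydin ranged from -3.28 to -0.45 with every pair of genotype groups overlapping. Rsph4a was above background on 1 array, and the brightest Spag17 probe, of a central pair protein, on 2, PRCre eutopic pool 2 and PRCre lesion pool 1. A second Spag17 probe was also above background on 2 arrays, with a highest reading of -3.39, and read -7.61 on PRCre eutopic pool 2.

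Dynein heavy chains are the motors of the axoneme. Dnah2 of the inner arms read -4.34, -4.07 and -4.48 in ERBOE lesions, against -3.04, -3.02 and -2.53 in ERBOE eutopic endometrium and -3.10, -3.71 and -3.92 in ERBOE uterus. The lesion pools were below both without overlap, by -1.43 ± 0.64 for eutopic endometrium (limma adjusted p = 0.443). In the controls Dnah2 read -3.05, -3.04 and -4.54 in PRCre lesions, against -2.23, -1.21 and -4.26 in PRCre eutopic endometrium and -2.68, -4.39 and -3.48 in PRCre uterus, with overlap throughout.

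Dnah11 of the outer arms was well above background on 5 of 18 arrays, none of them a lesion. It read -4.99, -6.47 and -4.67 in ERBOE eutopic endometrium, against -4.24, -4.03 and -5.28 in ERBOE uterus. In PRCre mice it read -6.17, -2.49 and -4.81 in eutopic endometrium, against -5.77, -4.81 and -5.69 in uterus. In lesions it read -5.84, -6.64 and -5.55 in ERBOE mice, against -6.09, -6.30 and -6.93 in PRCre mice, all below background. PRCre lesions minus eutopic endometrium was -1.95 ± 0.73 (limma adjusted p = 1; at least 1.46-fold lower in lesions). Without PRCre eutopic pool 2, the 1 PRCre eutopic pool above background, it was -0.95 ± 0.59 and no bound can be given.

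Dnah6 of the inner arms read -1.01, -1.60 and -0.99 in ERBOE lesions, against -2.08, -1.74 and -2.50 in ERBOE uterus, and these pools did not overlap. The difference was 0.91 ± 0.43 (limma adjusted p = 0.438). In ERBOE eutopic endometrium Dnah6 read -1.26, -1.27 and -2.01, against -1.42, 0.47 and -0.99 in PRCre eutopic endometrium. Dnah6 read -0.89, -1.54 and -1.68 in PRCre lesions and -1.92, -1.04 and -1.17 in PRCre uterus, which overlapped. Dnah9 of the outer arms lay between -3.64 and -1.48, with PRCre lesions below PRCre uterus and eutopic endometrium and no comparison past the test. Dnah5 was above background on 2 arrays, PRCre eutopic pool 2 and ERBOE eutopic pool 1.

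Assembly factors fold dynein arms in the cytoplasm before they enter the cilium. Dnaaf3 read -0.22, -0.53 and -0.17 in ERBOE lesions, against -0.46, 1.58 and 0.63 in PRCre lesions. In eutopic endometrium it read -0.43, -0.62 and -0.69 in ERBOE mice, against -0.75, 0.03 and -0.89 in PRCre mice, and in uterus -0.64, -0.92 and -0.86 in ERBOE mice, against -0.46, -1.32 and -0.20 in PRCre mice. PRCre lesion pools 2 and 3 were the highest of the 18, and the groups overlapped. PRCre lesions minus uterus was 1.25 ± 0.42 (limma adjusted p = 0.279) and PRCre lesions minus eutopic endometrium was 1.12 ± 0.42 (limma adjusted p = 1), or 1.40 ± 0.46 without PRCre eutopic pool 2.

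Zmynd10, a second assembly factor, read -4.27, -4.37 and -4.41 in ERBOE eutopic endometrium, against -5.63, -4.71 and -4.70 in ERBOE uterus. In PRCre mice it read -2.95, -2.13 and -4.64 in eutopic endometrium, against -5.49, -4.80 and -4.66 in uterus, where no pool of either genotype was well above background. Eutopic pools lay above uterine pools without overlap in both genotypes, by 0.67 ± 0.60 in ERBOE mice (at least 1.3-fold higher) and 1.75 ± 0.60 in PRCre mice (limma adjusted p = 1 and 0.742; at least 1.76-fold higher), and by 1.19 ± 0.61 in PRCre mice without eutopic pool 2, where the bound was 1.2-fold. Without PRCre eutopic pool 3 that bound was 2.87-fold, and under normexp background correction the PRCre difference was 0.23, smaller than the bound. In lesions Zmynd10 read -4.68, -3.48 and -5.17 in ERBOE pools, against -3.25, -4.81 and -4.90 in PRCre pools, which overlapped. Dnaaf1 was above background on 3 arrays and lay between -6.57 and -4.46.

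Ccdc39 is a part of the ruler that sets the spacing of dyneins and spokes along the doublet. It read -5.62, -5.41 and -4.78 in ERBOE lesions, all below background, against -4.26, -4.19 and -4.34 in ERBOE eutopic endometrium, all above it. Its uterine readings were -5.97, -5.04 and -4.72 in ERBOE mice, against -3.16, -5.59 and -3.85 in PRCre mice. ERBOE eutopic pools were above both other ERBOE tissues without overlap, with lesions at least 1.22-fold lower than eutopic endometrium (difference -1.01 ± 0.53, limma adjusted p = 0.54). Without ERBOE lesion pool 1 that bound was 1-fold, and under a processing alternative with all arrays the difference was -0.13, smaller than the bound. A second Ccdc39 probe was well above background on 3 arrays. In PRCre mice Ccdc39 read -4.09, -5.01 and -5.20 in lesions, against -3.44, -3.32 and -4.35 in eutopic endometrium.

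Drc1 read -3.09, -3.87 and -3.66 in ERBOE lesions, against -4.42, -4.21 and -4.56 in PRCre lesions. These groups did not overlap, and the difference was 0.86 ± 0.90 (limma adjusted p = 0.992). In eutopic endometrium Drc1 read -3.43, -4.71 and -3.73 in ERBOE mice, against -4.76, -0.29 and -4.78 in PRCre mice, and in uterus -4.76, -5.94 and -4.89 in ERBOE mice, against -5.06, -4.54 and -6.25 in PRCre mice. PRCre eutopic endometrium minus uterus was 2.01 ± 0.90 (limma adjusted p = 0.746) and 0.51 ± 0.50 without eutopic pool 2, the other PRCre eutopic pools being below background.

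Tektins form filaments along the doublets, and further proteins line the inside of the tubules. Tekt1 read -5.03, -0.16 and -5.08 in ERBOE lesions, against -5.52, -7.06 and -5.60 in PRCre lesions. It was well above background in 2 of 3 ERBOE lesion pools and in 1 of 3 PRCre lesion pools. In uterus it read -5.69, -6.34 and -5.66 in ERBOE mice, none above background, against -4.42, -4.39 and -2.67 in PRCre mice. ERBOE pools were higher in lesions and lower in uterus, both without overlap, and ERBOE lesion pool 2 stood far above the other ERBOE lesion pools.

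The differences of Tekt1 were 2.64 ± 1.32 in lesions (limma adjusted p = 0.992) and -2.07 ± 1.32 in uterus (limma adjusted p = 0.627). On ERBOE lesion pool 2, Ovgp1 was also the highest of the lesions, at 2.38, with the other 5 lesion pools at -0.69 or lower. Of the 10 tested markers of oviduct secretory cells and ovary, 0 were highest on that pool among all arrays, and 2 were lowest. The pool gave the highest reading for 2 of the 30 motile cilia genes tested and the lowest for 1. For the 88 other motile cilia genes these counts were 3 and 7. In eutopic endometrium Tekt1 read -4.94, -3.04 and -4.13 in ERBOE mice, against -4.77, -0.25 and -5.43 in PRCre mice.

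Tekt2 read -0.37, -0.67 and -0.72 in ERBOE lesions, against -0.10 and -1.05 in PRCre lesions, where the spot of pool 3 was left out as an outlier. In uterus Tekt2 read 0.12, -0.41 and -0.10 in ERBOE mice, against 0.21, 0.37 and 0.95 in PRCre mice, without overlap and with a difference of -0.64 ± 0.40 (limma adjusted p = 0.622). PRCre lesions minus PRCre uterus was -1.08 ± 0.44 over the 2 lesion pools left (limma adjusted p = 0.357). In eutopic endometrium Tekt2 read -0.69, 0.62 and -0.23 in ERBOE mice, against 1.11, 0.17 and -0.20 in PRCre mice.

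Cfap52, a protein inside the doublet, read -7.25, -7.90 and -6.26 in ERBOE eutopic endometrium, all below background, against -5.49, -1.45 and -3.58 in PRCre eutopic endometrium. The groups did not overlap, and Cfap52 was at least 3.98-fold lower in ERBOE mice (difference -3.63 ± 1.33, limma adjusted p = 1). Without PRCre eutopic pool 2 the difference was -2.60 ± 1.41 and the bound was 1.95-fold, without PRCre eutopic pool 1 the bound was 7.92-fold, and under normexp background correction the difference was -1.15. In uterus Cfap52 read -3.32, -3.59 and -5.42 in ERBOE mice, against -1.64, -5.30 and -6.14 in PRCre mice, and in lesions -4.73, -6.40 and -5.98 in ERBOE mice, against -0.85, -5.82 and -4.37 in PRCre mice. PRCre pools 1 of uterus and lesions stood far above the other pools of their groups, and a second Cfap52 probe was above background on no array.

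Ak8, an adenylate kinase of the axoneme, read -3.31, -3.95 and -2.73 in ERBOE lesions, against -3.99, -4.44 and -4.98 in ERBOE uterus. These pools did not overlap, and the difference was 1.14 ± 0.53 (limma adjusted p = 0.412). In PRCre mice Ak8 read -3.17, -2.62 and -4.49 in lesions, against -3.88, -4.26 and -4.70 in uterus, and its eutopic readings were -3.64, -3.996 and -4.12 in ERBOE mice, against -4.42, -2.51 and -4.04 in PRCre mice. Cfap43, which tethers inner dynein arms, ranged from -2.04 to 1.41, and ERBOE minus PRCre eutopic endometrium was -1.29 ± 0.72 (limma adjusted p = 1), and -1.08 ± 0.83 without PRCre eutopic pool 2. It read -0.50, -1.36 and -1.71 in ERBOE eutopic endometrium, against 0.50, 0.53 and -0.72 in PRCre eutopic endometrium, which overlapped. In lesions Cfap43 read -1.84, -1.51 and -1.52 in ERBOE mice, against -1.56, -0.40 and -1.46 in PRCre mice, and in uterus -0.19, -1.04 and -2.02 in ERBOE mice, against 1.41, -2.04 and -1.25 in PRCre mice, with overlap in both.

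The remaining genes of the axoneme did not pass in any comparison. Cfap126, the adaptor also called Flattop, lay between -0.64 and 1.87, with ERBOE lesions (-0.33, -0.17 and -0.28) below ERBOE eutopic endometrium (0.52, 0.54 and 0.47) without overlap. Tekt4 lay between -1.84 and -0.50 and was lower in lesions than in eutopic endometrium without overlap in both genotypes. Cfap53 lay between -6.86 and -3.11, Mns1 between -1.95 and 1.13, Tppp3 between 2.85 and 5.71, and Cfap206, of the base of the radial spokes, between -7.37 and -3.44. Ccdc113 and the brightest Cfap44 probe were above background on 2 arrays each, PRCre eutopic pool 2 and PRCre lesion pool 1, and the adenylate kinase Ak7 on none. Another Cfap44 probe was above background on 3 arrays and was not the one used.

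Between lesions of the genotypes, 16 of the 30 genes tested were higher in ERBOE lesions and 14 lower, with a median difference of 0.00 against -0.06 over all features. None passed limma at an adjusted p of 0.05, as for 0% of all features, and 2 of 30 had an unadjusted p under 0.05, Foxj1 and Ccno, while 4.47% of all features did. The pools of 4 genes were higher in ERBOE lesions without overlap (Foxj1, Ccno, Drc1 and Tekt1), as they were for 5.28% of all features. In eutopic endometrium 7 genes were higher in ERBOE mice and 23 lower, with a median of -0.28 against -0.01 over all features, and none passed (0% of all features), with 1 at an unadjusted p under 0.05 (2.98% of all features). Without PRCre eutopic pool 2 the direction turned, with 17 genes higher and 12 lower of 29 and a median of 0.14. Then 0 of the 29 had an unadjusted p under 0.05 (2.51% of all features). In uterus 11 were higher in ERBOE mice and 19 lower, with a median of -0.08 against -0.11, and none passed (0% of all features) or had an unadjusted p under 0.05, while 9.87% of all features had one.

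Between lesions and eutopic endometrium, in ERBOE mice 11 genes were higher and 19 lower in lesions, while 38.5% of all features were higher, with a median of -0.38 against -0.13 over all features, which turned to 0.08 under normexp background correction, where all features had a median of 0.04. The pools of 7 genes were lower in ERBOE lesions without overlap (Enkur, Dnah2, Rsph1, Rfx3, Ccdc39, Cfap126 and Tekt4), while 13.5% of all features were. In PRCre mice 6 were higher and 24 lower in lesions, while 41.7% of all features were higher, with a median of -0.79 against -0.06 over all features, and it was -0.44 without PRCre eutopic pool 2. None passed, and 0.00299% of all features did, while 7 of 30 had an unadjusted p under 0.05 (3.95% of all features). Without that pool 4 of 29 had one (4.22% of all features). The pools of 7 genes were lower in PRCre lesions without overlap (Foxj1, Ccno, Rsph1, Dnah9, Tekt1, Tekt4 and Enkur), while 4.12% of all features were. Enkur, Rsph1 and Tekt4 were on both of these lists, and the share of all features lower without overlap in both genotypes was not computed.

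**Figure D4:**
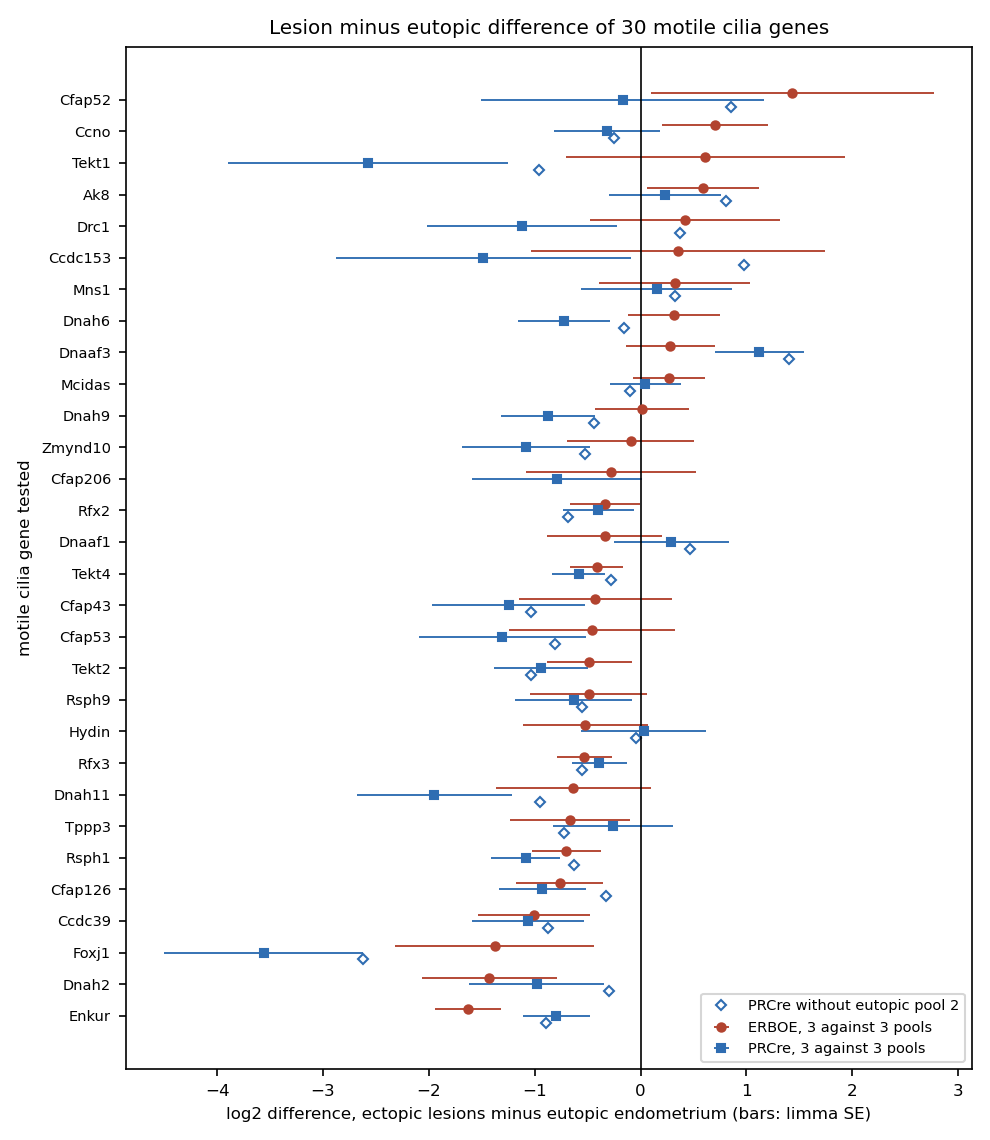
Log2 difference of the 30 motile cilia genes tested, ectopic lesions minus eutopic endometrium, in ERBOE mice (circles) and PRCre mice (squares) with limma SE bars, and in PRCre mice without eutopic pool 2 (diamonds, no bars; Cfap206 did not pass the filter there). Most symbols lie left of 0, Enkur in ERBOE mice at -1.63 is the 1 value past the threshold, and PRCre values such as those of Foxj1 (-3.56) and Rsph1 (-1.09) lie closer to 0 without that pool (-2.62 and -0.63).

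Lesions against uterus gave a mixed picture. In ERBOE mice 12 genes were higher and 18 lower in lesions, with a median of -0.13 against -0.07 over all features. The pools of 5 genes were lower in ERBOE lesions without overlap (Rfx3, Rsph1, Dnah2, Dnah11 and Enkur), while 11.5% of all features were, and those of 6 were higher (Ccno, Dnah6, Dnaaf3, Drc1, Tekt1 and Ak8), while 8.79% of all features were. In PRCre mice 10 were higher and 20 lower, with a median of -0.31 against -0.07. None passed, and 0.00897% of all features did, while 3 of 30 had an unadjusted p under 0.05 (11.8% of all features). The pools of 7 genes were lower in PRCre lesions without overlap, while 9.13% of all features were.

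Between eutopic endometrium and uterus, 19 genes were higher and 11 lower in ERBOE eutopic endometrium, with a median of 0.15 against 0.06 over all features, and none passed (0% of all features), with 2 at an unadjusted p under 0.05 (3.33% of all features). The pools of 7 genes were higher without overlap (Rfx2, Rsph9, Dnah2, Zmynd10, Ccdc39, Drc1 and Tekt1), while 7.06% of all features were. Of these, Rfx2 passed the filter only through its eutopic arrays. In PRCre mice 25 were higher and 5 lower in eutopic endometrium, with a median of 0.31 against -0.03, and none passed (0% of all features), with 3 at an unadjusted p under 0.05 (6.67% of all features). Without eutopic pool 2 that split became 15 higher and 14 lower, with a median of 0.05 and 1 at an unadjusted p under 0.05. None of the 30 passed in the 3 tests of whether the genotype difference differed between tissues (0% of all features in each), and 1 had an unadjusted p under 0.05 for eutopic endometrium against uterus (5.09% of all features), 3 for lesions against uterus (6.79%) and 0 for lesions against eutopic endometrium (1.73%). With that PRCre eutopic pool left out, these counts were 0, 3 and 0.

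Of a wider list of 130 motile cilia genes, none of them among the 38, 88 were tested. In lesions minus eutopic endometrium, 21 were higher and 67 lower in ERBOE mice (median -0.36), and 12 were higher and 76 lower in PRCre mice (median -0.48). The medians over all features were -0.13 and -0.06, with 38.5% and 41.7% higher. Without PRCre eutopic pool 2 the PRCre split became 23 higher and 61 lower of 84 (median -0.26). Of the 88, 1 passed in any comparison, and this was Ccdc65, a part of the nexin-dynein regulatory complex. In ERBOE lesions minus ERBOE uterus, where it passed, 1.23% of all features passed and 0.284% were called lower. Its values under the alternatives used for Enkur were not computed. Ccdc65 read -2.86, -3.37 and -3.13 in ERBOE lesions, against -0.29, 0.43 and -1.16 in ERBOE uterus. The groups did not overlap, and Ccdc65 fell by 2.78 ± 0.46 on the log2 scale (limma adjusted p = 0.00818). In PRCre mice it read -3.39, -2.98 and -2.67 in lesions, against -3.19, -1.79 and -2.20 in uterus, which overlapped.

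Genes of intraflagellar transport and the primary cilium, which many cell types carry, were lower in lesions than in eutopic endometrium for 59 of 63 in each genotype, with medians of -0.33 in ERBOE mice and -0.25 in PRCre mice and none past the threshold. In PRCre mice 61 of 63 were lower without PRCre eutopic pool 2, with a median of -0.34. Of all features, 38.5% were higher in ERBOE lesions and 41.7% in PRCre lesions, with medians of -0.13 and -0.06. Neither this list nor the wider motile cilia list was recomputed under normexp background correction.

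The listed genes did not vary as 1 block. Over the 18 arrays the correlation between pairs of the 30 genes had a median of 0.17 over 435 pairs, from -0.67 to 0.93, and a median of 0.05 over the 17 arrays without PRCre eutopic pool 2. The genes most like the mean of the other 29 were Tekt4 (r = 0.84), Cfap126 (0.774) and Dnah9 (0.737), while Tppp3 (-0.435) and Dnaaf3 (-0.227) ran against it. These values share the arrays and their scaling, and are given as a description.

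Outside the list, the 10 features with a symbol most like the mean of the 30 genes over 18 arrays were Disp3, Dynlrb2, Dcpp1, Plk5, 1110017D15Rik, Morn5, 1700013F07Rik, Osbpl6, Ribc2 and Myo7b, with r from 0.829 to 0.941. All 10 gave their highest reading on PRCre eutopic pool 2. Dynlrb2, a dynein light chain, read 1.30 there and at most -2.46 elsewhere, and Dcpp1 read 0.99 there and at most -3.12 elsewhere. Over the other 17 arrays their r lay between 0.507 and 0.781, and 1 of the 10, Disp3, was still among the 10 most alike, a place otherwise taken by features such as the axonemal dynein Dnah7a (r = 0.819) and Nme5 of the radial spokes (0.797).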

How the data were processed

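RNA of 18 pools was hybridised to one-colour Agilent arrays, from 25 ng of total RNA and 600 ng of labelled cRNA per the labels' protocols. The deposited scanner files hold intensity values that Feature Extraction 11.0.1.1 (protocol GE1_1100_Jul11) had background-corrected, per the file headers. Levels were computed as log2 of that processed intensity minus each array's 75th percentile, without control and outlier spots. The deposited value table holds log2 values centred on the mean of each probe, and no source used here says how they were computed. Of 56605 probes, 32994 were named through RefSeq annotation of GRCm38.p6, and the brightest probe stood for a gene. A feature was tested if well above background on at least 3 of 18 arrays.

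limma 3.58.1 in R 4.3.3 was fitted to all 33455 features with 6 group means, giving 12 comparisons adjusted by Benjamini-Hochberg over all features, with 12 residual degrees of freedom. The fit was tested on simulated data. Signal and the number of arrays limit the precision, and nothing in the labels ties pools of different groups to each other. Values for every array were given for the 5 regulators and for the 5 genes with the smallest p in a comparison. Alternatives covered background correction, scaling, filter, probe choice, spread model, value source, slide, replicate block and each array left out. The normexp alternative used the median spot signal, since the files analysed hold no mean spot signal. The members and lists were chosen with earlier results of these data known.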

Additional observations from a re-analysis of the deposited data

Results flagged for a closer look

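For Tekt1, a tektin of the doublet microtubules, the group differences had opposite signs in different tissues, with many pools below background. The probe was well above background in 2 of 3 ERBOE lesion pools and 1 of 3 PRCre lesion pools. In uterus it was so in 0 of 3 ERBOE pools and 2 of 3 PRCre pools. ERBOE minus PRCre was 2.64 in lesions and -2.07 in uterus, and lesions minus uterus was 2.47 in ERBOE mice (at least 2.54-fold higher) and -2.23 in PRCre mice, in each case without overlap of the pools. The test of the difference itself gave 4.71 ± 1.87 (limma, unadjusted p = 0.0241, adjusted p = 0.64), so it did not pass over all features. In ERBOE lesions pool 2 read -0.16 and the other pools -5.03 and -5.08. Without pool 2 the genotype difference in lesions was 1.00, the test of the difference gave 3.08 (limma adjusted p = 0.771), and no bound can be given for ERBOE lesions against uterus. Ovgp1 read 2.38 on that pool, the highest of the lesions. Of the 10 tested markers of oviduct secretory cells and ovary, that pool was highest of all arrays for 0 and lowest for 2. The part of oviduct content in the Tekt1 reading was not tested.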

How the results depend on the processing

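The count of motile cilia genes called was recomputed under 30 alternatives in each comparison. In ERBOE lesions minus eutopic endometrium it was 1 and became 0 under normexp background correction and with only the groups compared, and 0 to 1 with 1 array left out. In ERBOE lesions minus uterus it was 1, became 2 with array weights (Enkur and Rsph1) and 0 with only the groups compared, and was 0 to 2 with 1 array left out. With only the groups compared, fewer arrays estimate the spread, and the adjusted p of Enkur was 0.165 and 0.138. Rsph1 had an adjusted p of 0.0173 with array weights.

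Of 60 gene results, the only calls that could be lost were those of Enkur in ERBOE lesions. They were lost under 6 of 30 alternatives against eutopic endometrium and under 4 of 30 against uterus. The other gene results counted as kept where they stayed uncalled with the same sign. Of 1763 alternatives over the 60 gene results, 1746 kept direction and side of the threshold, 10 lost the call, 2 gained it and 5 turned direction. All 5 turned under normexp background correction, where the cause was not tested: Rfx2 in eutopic endometrium minus uterus at -0.0105 in ERBOE and -0.0735 in PRCre mice, Rfx2 in PRCre lesions minus uterus at -0.28, Ccno in ERBOE eutopic endometrium minus uterus at -0.0051, and the genotype difference of Rsph1 for lesions minus uterus at 0.0031. That correction also shifted the median of all features by more than 0.1 in some comparisons, for ERBOE lesions minus eutopic endometrium to 0.04, against -0.13 without it. With the replicate block, 1 gene was called in each of the same comparisons, Enkur with an adjusted p of 0.0411 against eutopic endometrium and 0.0285 against uterus, and 0 in the others. Pools with the same number had a median correlation of deviations of 0.03, the lowest being -0.34, against a median of -0.02 for different numbers. The best match shared the number for 8 of 18 arrays. These values lie close together and do not settle whether the numbers pair the pools.

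The median of the genes tested turned to 0.08 for ERBOE lesions minus eutopic endometrium under normexp, and to 0.14 for ERBOE minus PRCre eutopic endometrium without PRCre eutopic pool 2. It also turned to -0.02 for ERBOE eutopic endometrium minus uterus under normexp, and to 0.15 for the genotype difference of eutopic endometrium minus uterus without PRCre eutopic pool 2. Medians near 0 turned under 3 alternatives for ERBOE minus PRCre uterus (up to 0.09), 6 for ERBOE minus PRCre lesions (down to -0.03) and 3 for the genotype difference of lesions minus uterus (down to -0.08).

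Dim probes limit what can be said of the assembly factors, the ruler and Foxj1, where several groups give only a bound.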
